A study of Mus musculus with 6 samples.

Results

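The lipoxygenase and cyclooxygenase pathway genes turn arachidonic acid, a fatty acid released from cell membranes, into leukotrienes, prostaglandins and related lipid mediators. They were taken as 10 named genes. Alox5, Alox5ap, Lta4h, Ltc4s, Ltb4r1, Alox12 and Alox15 form the leukotriene and lipoxygenase side (7 genes), and Ptgs1, Ptgs2 and Hpgds form the prostaglandin side (3 genes), out of 78289 genes in the annotation. Chromatin accessibility at these genes came from ATAC-seq, an assay that lets the enzyme Tn5 cut open DNA and reads the cuts by sequencing. A peak was counted for a gene when its summit lay in the gene body or within 3000 bp of an annotated start. By this rule 23 of the 62876 regions of the series belonged to the 10 genes.

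Peaks were available for 3 control and 3 HADA libraries of white blood cells from mouse peripheral blood. HADA stands for high altitude de-acclimatization. Per the study's methods, male C57BL/6j mice of 8 weeks spent 28 days in a hypobaric chamber that simulated 6000 m and were then returned to normal oxygen, while control mice stayed in normal oxygen. The labels give no time of blood collection after the chamber and no animal for each library, so the spread between libraries may be partly technical. The cells were what was left of blood after lysis of red cells, with no sorting named. The labels and the methods call them white blood cells or leukocytes, while the results text of the study calls them mononuclear cells, which would hold few neutrophils. The libraries were compared to ask whether accessibility at these genes differed after HADA.

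In blood, 5-lipoxygenase (Alox5) works with its activating protein (Alox5ap) in neutrophils and monocytes to make leukotriene A4. Lta4h turns this product into leukotriene B4, which attracts neutrophils through the receptor Ltb4r1, and Ltc4s turns it into leukotriene C4, the first of the cysteinyl leukotrienes. The cyclooxygenases Ptgs1 and Ptgs2 make prostaglandin H2, from which Hpgds makes prostaglandin D2. Alox12 and Alox15 are lipoxygenases that add oxygen at other carbons, and Alox15 products are precursors of lipoxins.

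Each value below is a summit pileup, the number of fragments stacked over the highest base of a peak, divided by the genome-wide background pileup of its library, unless another scale is named. The libraries held 34045 to 45799 peaks, and their background pileup, which stands for depth, was 1.69 to 2.05 for the controls against 1.99 to 2.34 after HADA. Relative to this background the median shared region was higher in HADA by 0.38 on the log2 scale. Group differences are therefore given relative to the median shared region, with the difference over background beside them where the call changes. A shared region is one with a peak in all 6 libraries. A list holds only what passed the peak caller, so a region with no peak is not shown to be closed. The lowest pileup called was 7 to 9 fragments across these libraries. Where the background around a peak was high, more fragments than this were needed for a call. Ptprc, Coro1a and Laptm5, which all leukocytes use, had peaks in all 6 libraries.

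Alox5, Alox5ap and Ltc4s carried leukotriene-side regions that were far apart between groups or seen in 1 group only, and the sequence at 4 of their summits is shown so that the sites can be found. Each is the 201 bases around the summit in GRCm39, plus strand, and capitals mark a match to GAGGAAGT, a PU.1 core, or to TGTGGTT, a RUNX core, on either strand. The first pair lies in introns of Alox5, the next in an intron of Alox5ap, and the last upstream of Ltc4s.
Alox5 intron, chr6:116432973-116433173: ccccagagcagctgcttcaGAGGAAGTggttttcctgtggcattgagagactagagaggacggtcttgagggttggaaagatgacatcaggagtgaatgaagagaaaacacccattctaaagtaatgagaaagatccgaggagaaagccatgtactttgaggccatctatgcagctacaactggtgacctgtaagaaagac
Alox5 intron, chr6:116435998-116436198: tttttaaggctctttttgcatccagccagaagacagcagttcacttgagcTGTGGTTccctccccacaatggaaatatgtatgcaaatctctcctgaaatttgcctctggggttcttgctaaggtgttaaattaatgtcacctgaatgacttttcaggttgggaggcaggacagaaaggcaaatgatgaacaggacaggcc
Alox5ap intron, chr5:149211497-149211697: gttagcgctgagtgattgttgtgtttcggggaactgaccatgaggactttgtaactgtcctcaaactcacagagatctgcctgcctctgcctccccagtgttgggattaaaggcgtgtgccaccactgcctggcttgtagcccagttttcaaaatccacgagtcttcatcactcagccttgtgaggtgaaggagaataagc
Ltc4s upstream, chr11:50130175-50130375: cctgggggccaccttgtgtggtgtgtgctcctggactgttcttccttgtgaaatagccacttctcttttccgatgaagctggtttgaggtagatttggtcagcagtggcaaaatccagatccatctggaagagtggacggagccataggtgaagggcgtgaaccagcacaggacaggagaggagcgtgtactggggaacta

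HADA libraries had lower summits at Alox5, at 2 of 3 shared Alox5ap regions and at the cyclooxygenase Ptgs2. Summits were higher at Hpgds and at a region inside Ltc4s that also lies near starts of Mgat4b and Gm26542. Of these, only the region inside Ltc4s passed when peaks were ranked by their fold over local background. Its call relative to the median shared region was lost when any HADA library was left out. In the ranking by fold, the sign turned at Alox5 and at the Alox5ap region 7819 bp in. Of the 11 shared regions at the 10 genes, limma called 6 lower in HADA, 2 higher and 3 not different at an adjusted p of 0.05. Over all 23970 shared regions the same fit called 24.1% lower and 17.9% higher. The median difference was -0.83 over the 11 regions and -0.04 over all shared regions, on the log2 scale relative to the median shared region. With pileup over background as the scale, 4 of the 11 were called lower and 2 higher, against 18.3% lower and 31.0% higher over all shared regions. Alox5ap at 7819 bp and Ltb4r1 were the calls lost. Without HADA 2 the calls fell to 3 lower and 0 higher of 11, with 6 lower and 2 higher at an unadjusted p under 0.05, and the calls over all 24613 regions fell as well, to 2021 lower and 737 higher. Without HADA 1 the calls were 5 lower and 1 higher of 11, beside 3558 lower and 1863 higher of all 24593 regions. Without HADA 3 they were 5 lower and 1 higher of 12, beside 3857 lower and 1682 higher of all 24506 regions.

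**Figure D1:**
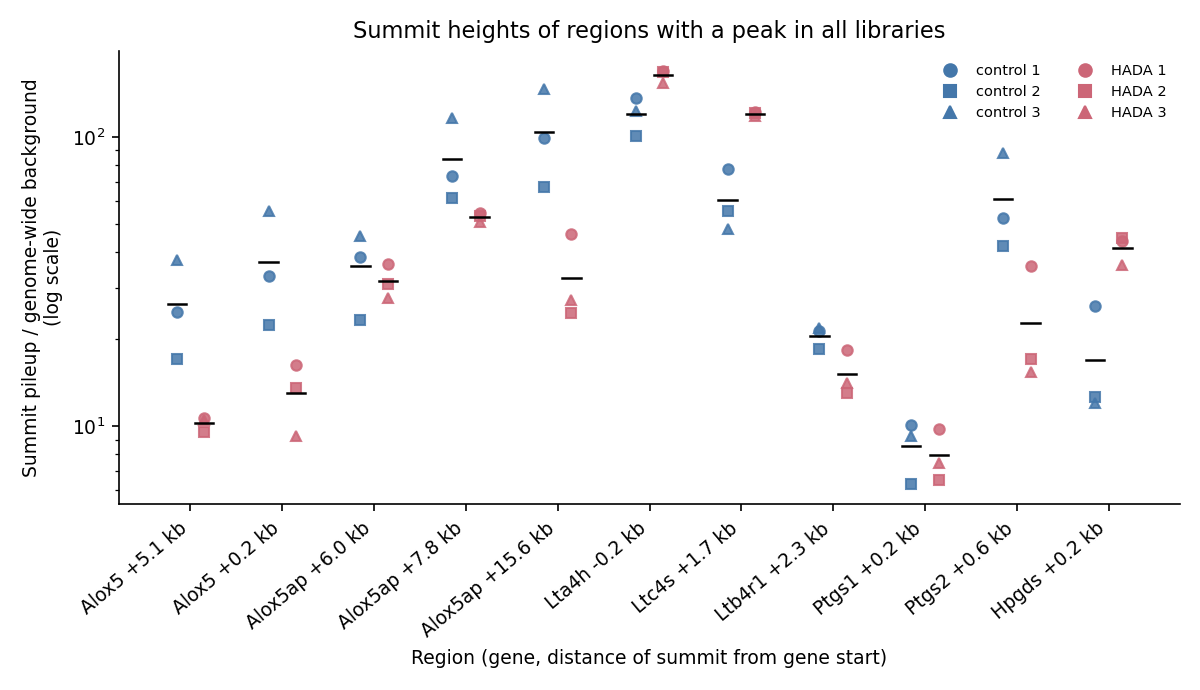
Summit pileup over the genome-wide background of each library (vertical axis, log scale) at the 11 shared regions (horizontal axis, gene and distance of the summit from the gene start in kb), with a point for each of the 3 control and 3 HADA libraries. The control and HADA points are apart at 9 of the 11 regions, with HADA lower at 6 and higher at 3, and they overlap at Ptgs1 and at the Alox5ap region nearest the gene start.

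Alox5 spans chr6:116387032-116438139 on the minus strand and had 5 regions. Over its start, in an exon with the summit 197 bp inside the gene, the pileup over background was 33.2, 22.4 and 55.7 for the controls against 16.2, 13.6 and 9.23 after HADA. All control values lay above all HADA values, with means of 37.1 ± 17.0 and 13.0 ± 3.53 (SD, n = 3 each), 2.85-fold apart. The log2 difference relative to the median shared region was -1.83 ± 0.35 (SE, limma adjusted p = 0.0109). Only 2.85% of all shared regions had a lower difference. For this and each other single region whose groups were apart, the exact permutation p was 0.1, two-sided, the smallest that 3 against 3 can give.

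The first intron window printed above, with the PU.1 core 81 bp to the left of the summit, lies 5066 bp inside Alox5. Its region, chr6:116432735-116433242, measured 24.9, 17.0 and 37.7 over background in control and 10.7, 9.54 and 10.6 in HADA libraries. The HADA values were close together and below every control value. The difference was -1.68 ± 0.30 on the log2 scale relative to the median shared region (limma adjusted p = 0.00975).

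The intron region with the RUNX core, 2041 bp inside Alox5 (chr6:116435687-116436595), was the tallest of the gene in the control libraries, at 45.6, 38.0 and 91.3 over background. HADA 1 and HADA 2 had 21.4 and 12.1, and HADA 3 had no peak. When regions with peaks in at least 4 libraries were fitted, with the missing library left out, its difference was -2.17 ± 0.45 (SE, limma adjusted p = 0.0131). Far into the gene, 43476 bp from the start and also inside Gm67658, a region stood at 17.2, 13.6 and 28.4 in control libraries and at 10.7 in HADA 1, the only HADA library with a peak there. A last region, 1470 bp upstream, had a peak in HADA 1 only, at 17.9 over background. At the start and at the intron regions 2041 and 5066 bp inside the gene, control 3 was the highest library and control 2 the lowest of the controls.

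Alox5ap, on chr5:149196003-149227762 (plus strand), encodes the membrane protein that hands arachidonic acid to 5-lipoxygenase. It had 5 regions, all in introns. The tallest in controls, 15594 bp from the gene start and shown above, reached 99.5, 67.2 and 146 over background in control libraries. The HADA libraries had 46.1, 24.6 and 27.3, all below the lowest control. Means were 104 ± 39.9 and 32.7 ± 11.7 (SD, n = 3 each), 3.20-fold apart, and the log2 difference of -2.04 ± 0.34 was the lowest of the 11 shared regions (limma adjusted p = 0.00927).

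A second Alox5ap region, 7819 bp from the gene start, measured 73.5, 61.8 and 116 for the controls against 54.7, 53.2 and 51.0 after HADA over background. The groups were apart by less than at the other site, and the HADA libraries were nearly equal. Its difference was -0.99 ± 0.27 relative to the median shared region (limma adjusted p = 0.0248) and -0.61 ± 0.30 over background (adjusted p = 0.0778). The call was also lost without HADA 1, HADA 2 or HADA 3, with adjusted p of 0.0686, 0.0808 and 0.0678.

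The Alox5ap region nearest to one of its annotated starts, 127 bp away, did not pass the test. It had 38.5, 23.4 and 45.4 over background in control and 36.3, 31.1 and 27.7 in HADA libraries, and the groups overlapped (exact permutation p = 0.6). The log2 difference was -0.51 ± 0.25 relative to the median shared region (limma adjusted p = 0.139). It passed without control 2, at -0.72 (adjusted p = 0.0465). The regions of Alox5ap were thus unlike in how far the groups were apart, from overlapping at this start to 3.20-fold at 15594 bp. A further intron region 13546 bp in had 20.1, 20.4 and 37.7 in control libraries and 8.35 in HADA 3 alone, and one at 25888 bp had a peak in control 3 only, at 7.11.

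**Figure D2:**
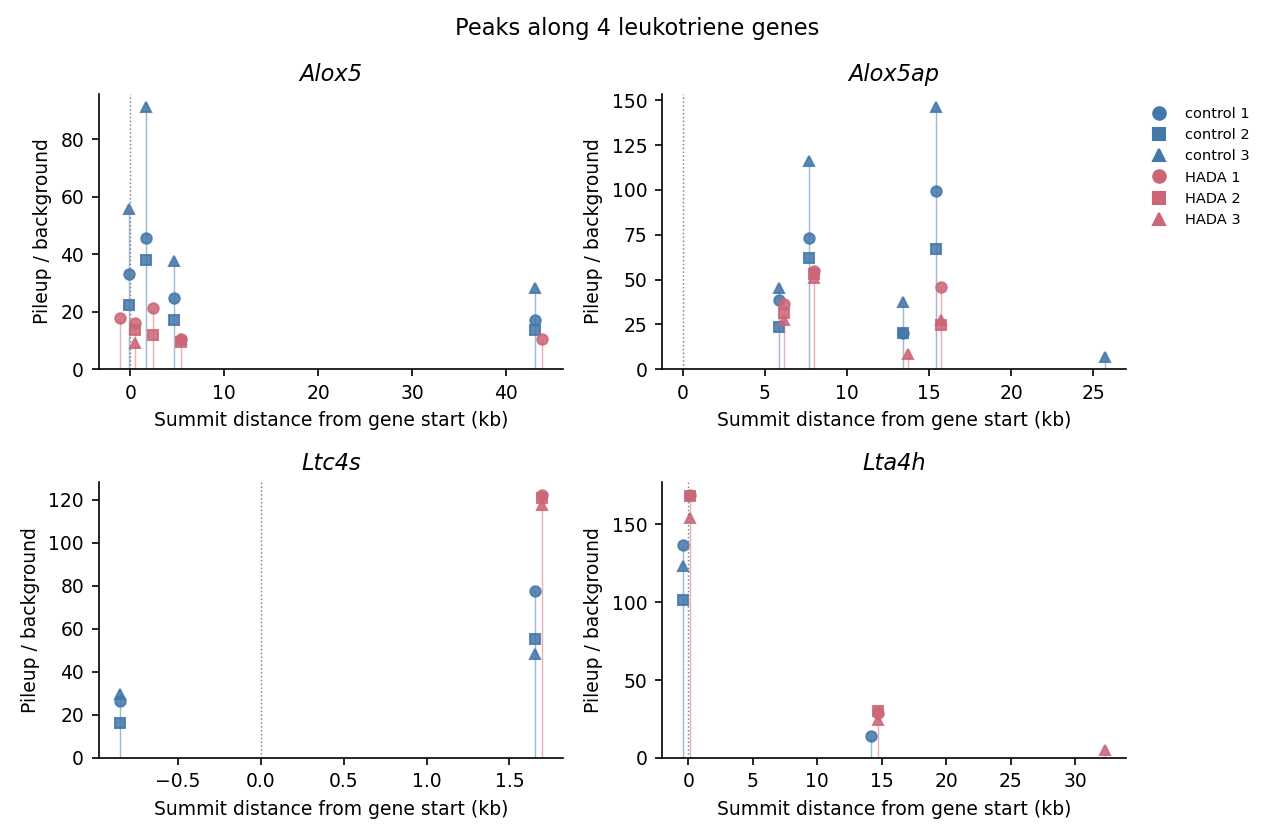
Pileup over background (vertical axis) of every peak against the distance of its summit from the gene start in kb (horizontal axis) at Alox5, Alox5ap, Ltc4s and Lta4h, with control libraries in blue and HADA libraries in red. HADA points are drawn slightly to the right of the control points so that they can be told apart. Control points stand highest at the intron peaks of Alox5 and Alox5ap, while the upstream peak of Ltc4s has control points only.

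Lta4h and Ltc4s are the enzymes that split the pathway toward leukotriene B4 or leukotriene C4. Their shared regions did not follow Alox5. At the Lta4h start (chr10:93287935-93289708, summit 171 bp upstream, near the start of Gm57556) the values over background were 137, 101 and 123 for the controls against 169, 168 and 154 after HADA. The HADA libraries were higher on this scale, but relative to the median shared region the groups overlapped, with a difference of 0.08 ± 0.16 (limma adjusted p = 0.724). Over background the difference was 0.45 ± 0.30 (adjusted p = 0.197). An Lta4h intron region 14438 bp inside the gene had a peak in control 1 only among controls, at 14.2, and in all HADA libraries, at 28.6, 30.1 and 24.2. Behind the gene, HADA 3 had a peak of 5.28 that no other library had.

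Inside Ltc4s, on chr11:50127288-50129443 (minus strand), a region 1677 bp from the start (chr11:50127223-50128507) measured 77.6, 55.5 and 48.1 for the controls against 122, 121 and 118 after HADA over background. Every HADA value was above every control value, and the means of 60.4 ± 15.3 and 120 ± 2.25 (SD, n = 3 each) were 1.99-fold apart. The difference was 0.65 ± 0.17 relative to the median shared region (limma adjusted p = 0.0197) and 1.02 ± 0.30 over background (adjusted p = 0.00276). Leaving out HADA 1, HADA 2 or HADA 3 ended the call, with adjusted p of 0.0638, 0.0726 and 0.0708. Starts of Mgat4b and Gm26542 lie within 3000 bp of this summit, so the region is not assigned to Ltc4s alone.

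Upstream of Ltc4s, peaks were called in control libraries only. How high the HADA pileup was there is not known, since a call needs more fragments where the background around a peak is high. The region whose summit window is printed above (chr11:50129511-50130465, 832 bp before the start, inside Gm26542) had peaks in all 3 control libraries, at 26.7, 16.1 and 29.5 over background, and in no HADA library. It was the only region of the 10 genes seen in all libraries of 1 group and none of the other. Over all regions, 1.88% were in 3 control and 0 HADA libraries and 7.01% in 3 HADA and 0 control libraries. When each list was limited to its 34045 strongest peaks, the Ltc4s site was no longer such a region and the Alox5ap site at 13546 bp became one.

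Ltb4r1, the leukotriene B4 receptor, is short (chr14:56003292-56005951, plus strand). A region in its exon, 2252 bp from the start and also inside Gm56758, had 21.3, 18.5 and 21.9 over background in control and 18.4, 13.1 and 14.1 in HADA libraries. The lowest control and the highest HADA value nearly met. The difference was -0.83 ± 0.20 relative to the median shared region (limma adjusted p = 0.0157) but -0.45 ± 0.30 over background (adjusted p = 0.200). The call was also lost without HADA 2 or HADA 3, with adjusted p of 0.0727 and 0.0560. A region 1380 bp upstream, which overlaps the second receptor gene Ltb4r2, had peaks in control 3 and HADA 1 only, at 23.0 and 14.96.

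The lipoxygenases Alox12 and Alox15 had 1 region each, and neither was shared by all libraries. The study names Alox15 among genes that were higher after HADA in the RNA of regulatory T cells and in accessibility of blood cells. RNA was not analysed here, and how the study assigned regions to genes is not given. Alox15 had 1 peak in the 6 lists. It was in control 1, in an intron 613 bp inside the gene (chr11:70242171-70242536), with a summit of 7 fragments, 4.15 times the background and the lowest pileup called in that library. No HADA library had a peak at Alox15. At Alox12 a low intron region 1039 bp inside the gene had 4.87 over background in control 2 and 7.69, 8.54 and 5.72 in the HADA libraries. This Alox12 peak was in 1 of 3 control and 3 of 3 HADA libraries, and no fit was made for it at the minimum of 4 libraries with 2 in each group.

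On the prostaglandin side, 1 of the 3 genes was called lower, 1 was called higher and 1 did not pass. Ptgs2, the inducible cyclooxygenase, had 1 region, just inside the gene with its summit 582 bp from the start (chr1:149975403-149976171, near Ptgs2os). It measured 52.7, 41.9 and 88.0 over background in control and 35.9, 17.1 and 15.4 in HADA libraries. All HADA values were below all control values, at means of 22.8 ± 11.4 and 60.9 ± 24.1 (SD, n = 3 each). The log2 difference was -1.83 ± 0.39 relative to the median shared region (limma adjusted p = 0.0126), and the adjusted p was 0.0528 without HADA 2.

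Ptgs1, the constitutive cyclooxygenase of platelets and other cells, had a low peak at its start (chr2:36120165-36120931). The values over background were 10.1, 6.33 and 9.29 for the controls against 9.83, 6.53 and 7.48 after HADA, and the groups overlapped (exact permutation p = 0.8). The log2 difference of -0.48 ± 0.22 relative to the median shared region did not pass (limma adjusted p = 0.112). In control libraries 4.12% of all shared regions had a lower mean.

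Hpgds, the hematopoietic prostaglandin D synthase, was higher in HADA at its start (chr6:65121316-65122214). Its values over background were 26.1, 12.7 and 12.0 for the controls against 43.6, 44.7 and 36.1 after HADA. Control 1 was the highest of the controls and still below every HADA library. Means were 16.9 ± 7.93 and 41.4 ± 4.70 (SD, n = 3 each), 2.45-fold apart, and the difference was 1.00 ± 0.23 relative to the median shared region (limma adjusted p = 0.0149), with an adjusted p of 0.0607 without HADA 2. An intron region 4185 bp inside Hpgds had peaks in HADA 1 and HADA 2 only, at 9.40 and 12.1.

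**Figure D3:**
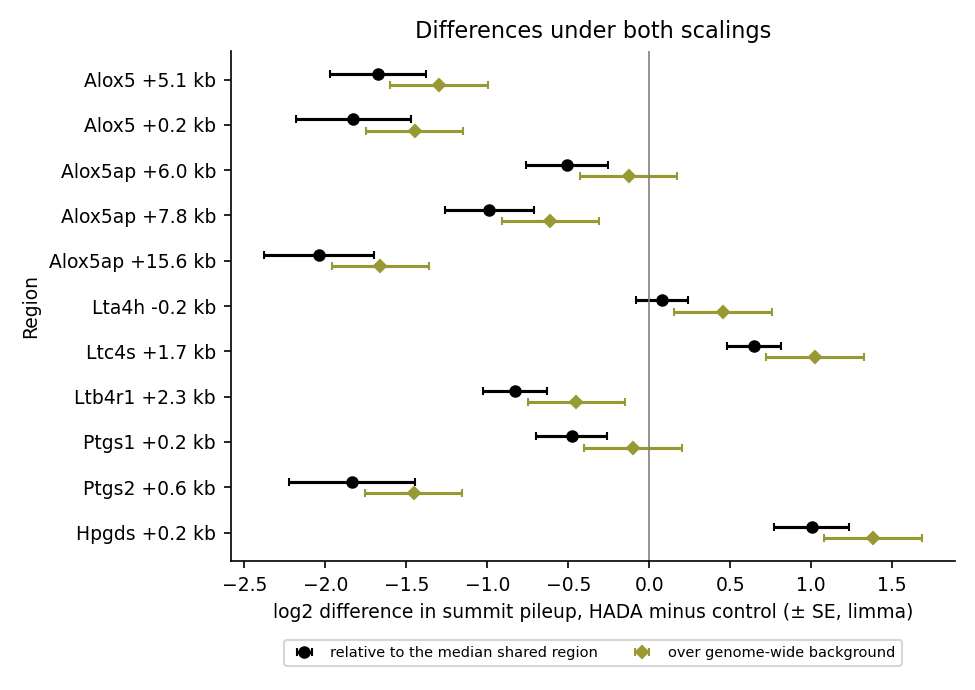
Log2 difference in summit pileup, HADA minus control, at the 11 shared regions (vertical axis, gene and distance from the gene start in kb), with points for the limma estimate and bars for its standard error. Black shows the difference relative to the median shared region and olive the difference over genome-wide background, which lies to the right of black at every region. Alox5, Ptgs2 and the farthest Alox5ap region lie well left of 0 on both scales, and Ltc4s and Hpgds lie right of 0 on both.

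The leukotriene and lipoxygenase genes and the prostaglandin genes were set side by side. On the leukotriene side, 5 of 8 shared regions were called lower, 1 higher and 2 not different, with a median difference of -0.91, against 24.1% lower and 17.9% higher over all shared regions. Over background the same side had 3 lower and 1 higher with a median of -0.53, against 18.3% lower and 31.0% higher over all shared regions. On the rank of the fold the sign turned, with 0 lower, 2 higher and a median of 0.36 in normal scores. The shares over all shared regions were 4.78% lower and 6.57% higher on that scale. On the prostaglandin side the 3 shared regions gave 1 lower, 1 higher and 1 not different, with a median of -0.48. Its median was -0.10 over background and 0.33 on the rank of the fold, where none of the 3 was called. Relative to the median shared region the medians of the sides differed by -0.43, which was not tested, since the regions are not replicates of a condition.

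By library, the median shared region of the leukotriene side stood at 0.63, 0.43 and 0.95 for the controls against 0.06, -0.48 and -0.37 after HADA, on the log2 scale relative to the median of all shared regions. On this scale every HADA library was below every control library. Over background the groups overlapped, with HADA 1 above control 2. For the prostaglandin side the medians relative to all shared regions were -0.40, -1.08 and -1.16 for the controls. They were -0.13, -1.18 and -1.21 after HADA, and the groups overlapped. The number of peaks was 14, 13 and 14 for the controls against 14, 11 and 12 after HADA on the leukotriene side. On the prostaglandin side it was 3, 3 and 3 against 4, 4 and 3.

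The fold enrichment that the peak caller reports sets the summit against its local background, the highest background estimate around the peak. At the Alox5 start the local background was 5.44 to 12.6 times the genome-wide background for the controls against 1.88 to 3.68 times after HADA. At Ptgs2 it was 5.69 to 12.3 times for the controls against 2.02 to 4.04 times after HADA. At Hpgds the order was the other way, with 1.00 to 1.78 times for the controls against 3.23 to 3.48 times after HADA. The local background thus moved in the same direction as the summit at these genes. No input library is named, so this background may hold reads of the same peaks and is not a separate measure.

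The local background of the groups did not overlap at any of the 11 shared regions. It was lower in HADA at 8 and higher at 3, against 14.2% and 45.7% of all shared regions. For the pileup over background, HADA was below control with no overlap at 6 of the 11 and above at 3, against 17.4% and 42.6% of all shared regions. When each region was ranked by its fold within its own library, 0 of the 11 were called lower by limma (1 at an unadjusted p under 0.05) and 2 higher, the Alox5ap start region and Ltc4s. Over all shared regions that fit called 4.78% lower and 6.57% higher. On that scale the sign of the difference turned at both Alox5 regions, at the Alox5ap regions 6027 and 7819 bp in, at Ltb4r1 and at Ptgs1.

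**Figure D4:**
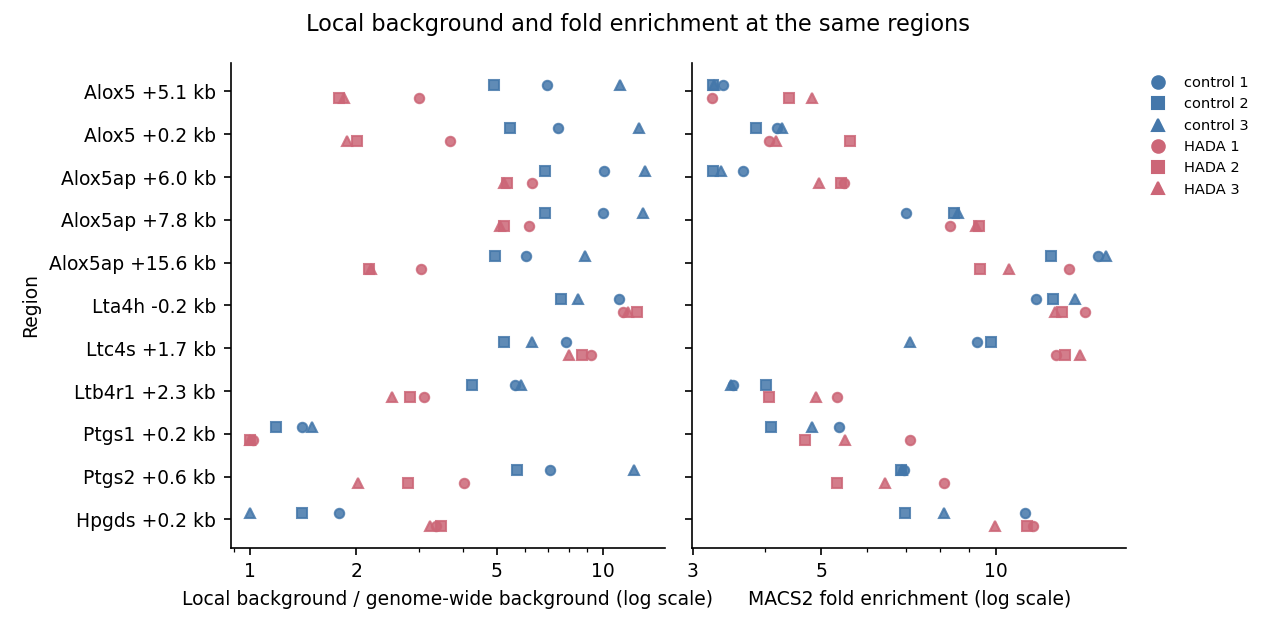
Local background divided by genome-wide background (left, log scale) and fold enrichment as deposited (right, log scale) at the 11 shared regions, with a point for each library (control blue, HADA red). At Alox5, Alox5ap, Ltb4r1 and Ptgs2 the HADA points lie to the left of the control points in the left panel, while in the right panel the groups overlap at most of these regions.

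White blood cells are a mixture, and in bulk samples fewer cells of a type and less open chromatin per cell cannot be told apart. Summed over their list, markers of neutrophils moved with Alox5, Alox5ap and Ptgs2, though not every gene did. Of 12 neutrophil genes, 10 had a peak and Camp and Ngp had none. Their tallest peaks summed to 210 to 520 times background in control and 107 to 186 in HADA libraries. Of their 9 shared regions, 7 were called lower and 0 higher. Padi4 leaned the other way with overlap, at 7.30 to 17.5 for the controls against 15.8 to 20.1 after HADA. Mmp9 overlapped, at 48.7 to 92.9 against 43.1 to 67.8, and also had a HADA-only region. The part of neutrophils in the difference at the pathway genes was not tested. The neutrophil sum was highest in control 3, then control 1, control 2, HADA 1, HADA 2 and HADA 3. The libraries had the same order at the Alox5 start, at the Alox5ap region 7819 bp in and at Ptgs2. At the Alox5ap region 15594 bp in, the Alox5 region 5066 bp in and Ltb4r1 the order differed, with HADA 3 above HADA 2.

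Other cell types were checked in the same way. Of the 8 shared regions of monocyte markers, 6 were called lower and 0 higher, against 24.1% lower over all shared regions, while their summed tallest peaks overlapped, at 223 to 318 for the controls against 251 to 300 after HADA. Within that sum Cd14 stood at 40.4 to 73.8 for the controls against 17.1 to 23.9 after HADA, while Klf4, at 68.9 to 115 against 128 to 156, and Ly6c2, at 15.1 to 23.7 against 33.4 to 41.9, went the other way. Eosinophil, basophil and mast cell markers, the cells known for Ltc4s, Hpgds and Alox15, gave sums of 187 to 414 and 186 to 252, which overlapped, and Ccr3, Epx, Fcer1a, Ms4a2, Gata2 and Mcpt8 of that list had no peak in any library. The tallest gene of the list in every library was Hdc, the histamine-making enzyme, at 139 to 384 for the controls against 94.1 to 147 after HADA. The eosinophil granule gene Prg2 went the other way, at 8.75 to 18.4 against 35.6 to 53.2, and the receptor gene Il5ra had 15.4 and 15.1 in control 1 and control 2, no peak in control 3, and 32.5 to 37.7 after HADA. Of the 6 shared regions of this list, 5 were called lower, at Hdc and Siglecf, and 1 higher, at Prg2. The part of these cells in the values at Ltc4s, Hpgds and Alox15 was not tested. Platelet markers, which bear on Ptgs1 and Alox12, summed to 93.0 to 135 and 111 to 137, with no peak at Gp1ba, Gp9 or Ppbp in any library.

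Over background, the summed peaks of lymphocyte and erythroid markers lay above all controls in every HADA library, as did Ltc4s and Hpgds and, on this scale, 42.6% of all shared regions. B cell markers summed to 38.3 to 257 for the controls against 548 to 607 after HADA, with 7 of 7 shared regions called higher. T cell markers summed to 235 to 336 and 387 to 436, with 3 of 13 shared regions called higher and 0 lower, against 17.9% called higher over all shared regions. NK cell markers summed to 18.6 to 53.3 and 58.1 to 72.8, with 0 of 2 shared regions called. Erythroid markers summed to 65.7 to 84.1 and 144 to 181, mostly Klf1 at 57.9 to 75.8 and 120 to 153. Of the 12 shared regions of housekeeping genes, 0 were called lower and 1 higher. The part of these cells in the difference at Ltc4s and Hpgds was not tested.

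**Figure D5:**
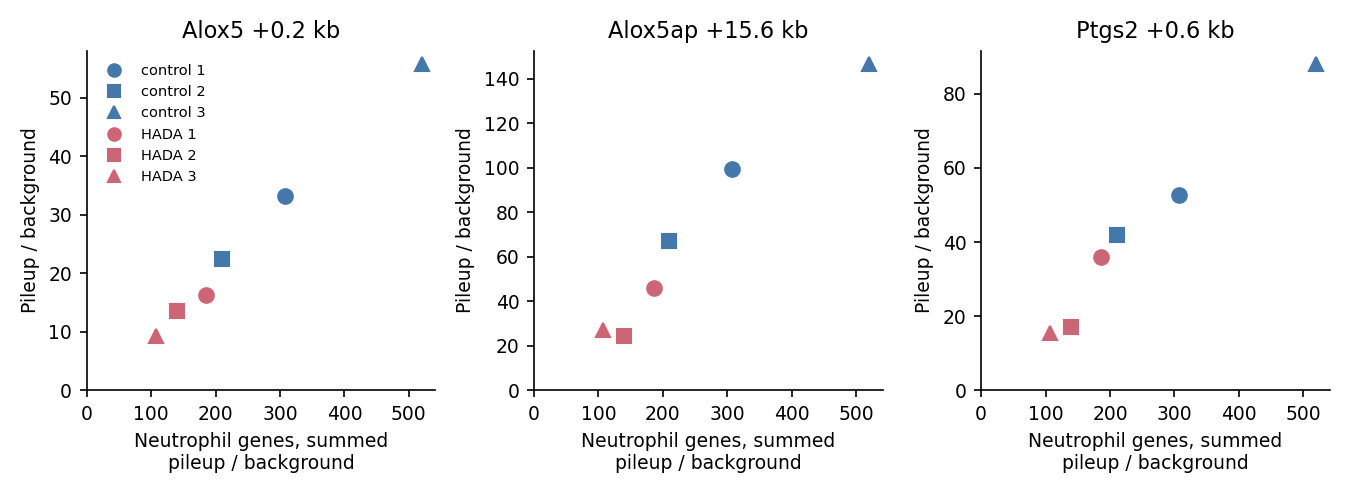
Pileup over background at pathway regions (vertical axis) against the summed tallest peaks of the neutrophil marker genes in the same library (horizontal axis), with a point for each control (blue) and HADA (red) library. Libraries with a high neutrophil sum, control 3 above all, also have high values at the Alox5 start and Ptgs2.

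Other genes of the pathway were taken from a list. Of 45 listed genes, 44 were matched in the annotation, 38 had a peak and 27 had a shared region. Over their 42 shared regions, 13 were called lower in HADA and 7 higher, with a median difference of -0.07, against 24.1% lower and 17.9% higher over all shared regions. On the leukotriene side 4 of 14 were lower and 1 higher, on the prostaglandin side 8 of 25 were lower and 6 higher, and among the phospholipases that release arachidonic acid 1 of 3 was lower. The balance turned over background, where 8 of the 42 were called lower and 12 higher, with 3 lower and 4 higher on the leukotriene side and 5 lower and 7 higher on the prostaglandin side, beside the 18.3% lower and 31.0% higher over all shared regions. No peak was found at Alox12b, Alox12e, Dpep3, Hpgd, Ptgfr or Pla2g4b in any library.

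Several of these genes had a region called lower. At Ptger3, the prostaglandin E2 receptor EP3, a region measured 27.95 ± 4.87 over background in control and 8.99 ± 2.45 in HADA libraries (SD, n = 3 each), a difference of -2.04 relative to the median shared region (limma adjusted p = 0.00784). At 1 of 5 shared regions of Abcc4, a pump that exports prostaglandins, the values were 21.5 ± 1.41 and 9.11 ± 1.80 (difference -1.64, limma adjusted p = 0.00805), while 2 more were called lower, 1 of them not over background (adjusted p = 0.504), and 1 was called higher, at 7.82 ± 1.72 and 21.3 ± 1.99 (difference 1.09, adjusted p = 0.0100). Other prostanoid receptors were called higher, with differences of 1.45 at Tbxa2r, the thromboxane receptor (adjusted p = 0.0207), and 0.64 at Ptger1, the EP1 receptor (adjusted p = 0.0305). Ptger2, the EP2 receptor, was called lower at -0.91 (limma adjusted p = 0.0181), though not over background (adjusted p = 0.128). Cmklr1, a receptor for chemerin and resolvin E1, measured 41.3 ± 8.32 and 11.9 ± 5.31 (difference -2.25, limma adjusted p = 0.00901). Ggt1, which trims leukotriene C4 to leukotriene D4, was lower at 1 region, by -1.41 (limma adjusted p = 0.0186).

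Several had a region called higher. Tbxas1, the thromboxane synthase, measured 15.4 ± 4.95 over background in control and 48.4 ± 1.58 in HADA libraries at 1 of its 6 shared regions (difference 1.32, limma adjusted p = 0.00898), and 2 others of the gene were called lower, 1 of them not over background (adjusted p = 0.0896). Ptges, a prostaglandin E synthase, was called lower, by -1.11 (limma adjusted p = 0.0309), and Ptges2 and Ptges3 did not pass. Tbxa2r, Ptger1, Ptges, Ptges2, Ptges3 and the further regions of Abcc4 and Tbxas1 were named after their values were seen. Ptgds, the other prostaglandin D synthase, measured 22.1 ± 7.54 and 60.5 ± 2.82 (difference 1.12, limma adjusted p = 0.00927). Ptgds and Hpgds, which both make prostaglandin D2, were thus called higher. Mgst3, a microsomal glutathione transferase, measured 66.4 ± 23.0 and 161 ± 5.45 (difference 0.96, limma adjusted p = 0.0132).

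Some regions of these genes were in all libraries of 1 group only, 3 in control and 8 in HADA of 117 regions. In HADA libraries alone, Dpep2, a dipeptidase that acts on leukotriene D4, had a region at 18.7 ± 6.34 over background and Ptger4, the EP4 receptor, one at 15.4 ± 0.104 (SD, n = 3). A HADA-only region of Ggt1 and another of Tbxas1 stood at 10.1 ± 1.34 and 9.03 ± 1.75. In control libraries alone, Pla2g4a, the cytosolic phospholipase A2, had a region at 16.2 ± 4.01 and Fpr2, a lipoxin receptor, one at 12.5 ± 2.63. Over all regions the shares were 1.88% in control and 7.01% in HADA libraries alone.

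The promoters most like the pathway genes over the 6 libraries were found among 11878 promoter regions of protein-coding genes. Likeness was the Euclidean distance between log2 pileups relative to the median shared region, with each profile's own mean removed. Nearest to the Alox5 start were Pram1 (0.212), Cfp (0.233) and Tlr2 (0.237). Nearest to the Alox5ap region at 15594 bp were Ccdc63 (0.165), Atp2c1 (0.224) and Sirpb1b (0.228). For Ptgs2 they were Ccdc88c (0.137), Myadm (0.147) and Trem3 (0.195), and for Ptgs1 they were Gaa (0.160), Rsbn1l (0.169) and Rpl19 (0.176).

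The 201 bases around each of the 23 summits were searched on both strands for short cores of transcription factors that act in blood cells. The PU.1 core GAGGAAGT was in 3 of the 23, at Alox5, upstream of Ltb4r1 and at the Hpgds start, and in 4.16% of all 62876 regions. The AP-1 core TGANTCA was in 4 of the 23, against 5.51% of all regions, and TTGCNNAA of C/EBP was in 3, against 8.68%. The NRF2 core TGACNNNGC, which can overlap the AP-1 core, was in 2, against 8.26%. At the Alox5 region 43476 bp from the start, the AP-1 and NRF2 cores overlapped. RUNX TGTGGTT was in 2 (7.10% of all regions), the GATA factors' core AGATAA in 2 (6.95%), ETS CCGGAAGT in 1 (1.24%) and EBF CCCNNGGGA in 1 (4.59%), while the core AGGGGGC of CTCF (4.27%) and GGGANTTCC of NF-kB (1.08%) were in none. A match is a description of the letters and not of binding. The 50 bases at each of the 23 summits occurred once in the genome, and the median GC content was 52.7% over the 23 windows and 49.8% over all regions.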

How the data were processed

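ATAC-seq peaks of 6 libraries (3 control, 3 HADA, grouped by the labels) were analysed. Per the methods, the authors used Trimmomatic for trimming, Bowtie2 for alignment (GRCm39 per the labels), Picard to remove duplicates, and MACS2 to call peaks, here library by library. The MACS2 options and any Tn5 shift are not given in the sources used here. The deposited lists give each peak a fold enrichment (a ratio to local background), p and q values as −log10, a score derived from q, and the summit offset. The deposited lists hold no read counts.

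Because MACS2 computes its fold and Poisson p from the pileup and the local background, both were solved from the deposited fold and −log10 p, which succeeded for 100% of peaks in each library. The lowest local background of a library, as the median of peaks at that floor, was taken as its genome-wide background, and total reads were not analysed here. The solving step and limma were each run on simulated data. Peaks sharing 1 bp were merged into regions. Regions with a peak in all 6 libraries were compared with limma 3.58.1 in R 4.3.3 on log2 pileup centred on the median region, with Benjamini-Hochberg adjustment over 23970 regions at 0.05. For pileup over background limma gave every region the same SE. Since the lists hold called peaks only, restriction to shared regions leaves out those that fell below the call in any library. Genes came from GENCODE release M39. A summit within 3000 bp of an annotated start, or in the gene body, was assigned to the gene. For single regions a two-sided exact permutation test compared group means.

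The 10 genes, the pathway list and the marker lists were chosen with earlier results of these data known. All 10 genes are named. Of the other pathway genes, those named by rule are up to 8 genes, each by its shared region with the smallest p past the threshold, and up to 6 genes, each by its tallest region in all libraries of 1 group only. Akr1b3 of that list was not matched. Windows that overlap a UTR are not printed. Alternatives were pileup over background, the rank of the fold, a minimum of 4 libraries, merging within 100 bp, a −log10 q of at least 5, a replicate block, a trended and robust prior, starts within 1000 bp, equal numbers of the strongest peaks, thinning to the lowest background, and leaving out each library.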

Additional observations from a re-analysis of the deposited data

How the results depend on the processing

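Over the 11 shared regions, 119 of the single-region values under the alternatives kept direction and call, 16 kept direction only, 1 gained a call and 6 reversed. The cause was not tested for any of these changes. The 6 that reversed did so on the rank of the fold, as normal scores: Alox5 to 0.49 at 5066 bp and 0.22 at the start, Alox5ap to 0.98 at 6027 bp and 0.13 at 7819 bp, Ltb4r1 to 0.60 and Ptgs1 to 0.35. On that scale 0 members were called lower (1 at an unadjusted p under 0.05), the difference between the leukotriene and prostaglandin medians was 0.029, and 1146 regions were lower and 1574 higher over the genome. Over background, 7432 regions were higher.

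With equal numbers of the strongest peaks, the difference in the members' peaks per library, HADA minus control, was -2.67, against -0.67. Control-only member regions numbered 2 with a −log10 q of at least 5 and 2 after thinning to the lowest background, where 1 HADA-only region appeared. Leaving out 1 library gave 3 to 7 members lower, 0 to 2 higher, 1 to 2 control-only and 0 to 1 HADA-only. Over the genome it gave 2021 to 5917 lower and 737 to 4813 higher regions, the fewest of each without HADA 2. The difference between the medians ranged from -0.58 to -0.35 and that in peaks from -1.67 to -0.17.

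With the replicate number as a block, 1 member was called higher and Ltc4s had a limma adjusted p of 0.0558. Samples with the same number did not deviate together (correlations -0.08, 0.08 and -0.38), so the samples share only a number, and no library correlated best with its own. The lists' depth limits what can be read from a missing peak.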

Other observations

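The genes in this section were chosen after their values were seen. Tbxas1, the thromboxane synthase, had 6 shared regions that did not all move together. At chr6:38983833-38984807 its pileup over background was 20.7, 14.6 and 10.9 for the controls against 47.0, 48.2 and 50.1 after HADA. At chr6:38895503-38896474 of the same gene it was 11.8, 12.2 and 10.9 for the controls against 8.12, 9.04 and 4.84 after HADA, with a difference of -1.10 relative to the median shared region (limma adjusted p = 0.0133). Around the Tbxas1 region at chr6:38851723-38853749, the tallest of the gene, the difference was 0.08 (adjusted p = 0.824). Tbxas1 thus held 1 region called higher and 2 called lower, of which 1 was not called over background (adjusted p = 0.0896).

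Pla2g4a, the cytosolic phospholipase A2 that releases arachidonic acid, had a very tall peak at chr1:149799441-149800091. It measured 134, 118 and 183 over background in the control libraries and 101 in HADA 1, on 226 to 334 fragments, and HADA 2 and HADA 3 had no peak there. A shared region of Pla2g4a at chr1:149836693-149837780 was lower by -1.001 (limma adjusted p = 0.0216), though not over background (adjusted p = 0.0721).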
